A study of Mus musculus with 6 samples.

Results

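Motile cilium genes were examined as a set of 48 rows among the 23420 genes of 2 count tables. The members were matched by symbol, from the stems *Dnaic*, *Dnali1*, *Dnaaf*, *Tekt*, *Rsph*, *Spag*, *Spef*, *Ift*, *Ccdc39*, *Ccdc40*, *Foxj1* and *Rp1*, and all 48 were protein coding in GENCODE M21. They were chosen with earlier results of these data known. The stems *Dnah* and *Mcidas* were also searched and matched 0 rows, because the tables list those genes under older symbols. The 11 dynein heavy chains listed as *Dnahc* and the *Mcidas* row listed as *Mcin* are therefore described beside the members and not counted among them. RNA had been sequenced from the luminal layer of the mouse uterus, cut out by laser microdissection, and from blastocysts flushed from the other horn, at 8 pm on day 4 of pregnancy. The luminal groups were Lif-floxed/floxed females given PBS (control), Lif-floxed/floxed Ltf-Cre/+ females given PBS (*Lif* eKO, in which leukemia inhibitory factor is deleted by a Cre that is active where lactoferrin is expressed, in the uterine epithelium), and *Lif* eKO females that received 2 injections of recombinant Lif (rLif), each of 20 µg per animal, the first at 10 am and the last at 6 pm. The blastocysts came from dams of the same 3 groups, and all 3 blastocyst groups carry the genotype label Lif-floxed/+. The design asks which transcripts differ in each tissue when epithelial Lif is missing and after Lif is supplied.

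Motile cilia beat because rows of axonemal dynein motors slide the outer doublet microtubules of the axoneme past each other. The motors are assembled in the cytoplasm by dedicated factors, the tektins lie along the doublets, and the radial spokes and central apparatus pass mechanical signals to the dynein arms. Intraflagellar transport (IFT) carries building material along the cilium in trains of IFT-A and IFT-B complexes, and primary cilia need it as much as motile cilia do. In cells with many motile cilia the program is switched on by Gmnc and Mcidas and then by the transcription factor Foxj1, with RFX factors acting on many of the same genes. In the female tract such cells are a known part of the oviduct epithelium.

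Each group was 1 library of pooled RNA, so no difference had a replicate check and no p-value is given. Total counts ranged from 18996158 to 28460465 per library. A ratio compares 2 libraries, not 2 conditions, and its 95% interval covers counting error only. In the text a gene is called higher or lower when the whole 95% interval of its ratio lay beyond 2-fold, a log2 ratio of 1. The targeted gene did not follow the luminal labels: 28 *Lif* counts (0.975 CPM) were present in the eKO library, against 0 in control and 0 in eKO with rLif. These counts cannot decide whether the labels are right. The paper names glands, not the luminal layer, as the source of Lif until embryos attach. Only part of the gene lies between the loxP sites, and gene-level counts do not show which part the reads came from. Groups are therefore named below as the libraries were labelled. Luminal epithelial markers were abundant in the luminal libraries, with all 12 of 12 detected and *Krt18* at 38456, 39937 and 34938 counts (control, eKO, eKO with rLif). Blastocysts also had 11 of the 12 in each library. The summed CPM was 11536, 19765 and 11694 in the luminal layer and 8241, 8495 and 7913 in blastocysts, so this list alone does not identify the layer. The inner cell mass marker *Pou5f1* had 5810, 6172 and 8033 counts in blastocysts and 0 in each luminal library. Of the 8 inner cell mass markers, 2, 3 and 2 were detected in the luminal libraries. Their summed CPM there was 36.0, 18.9 and 30.2, against 1553, 1622 and 1835 in blastocysts. Trophectoderm markers had 195, 210 and 148 against 2970, 3159 and 3220. Primitive endoderm markers did not set the tissues apart, at 1254, 1879 and 2708 against 1832, 1927 and 1621. In pooled tissue, fewer cells of a type and less RNA per cell cannot be told apart.

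*Foxj1*, the transcription factor that defines cells with motile cilia (chromosome 11, 116330704 to 116335354), was close to absent. It had 5 counts in the luminal control library, 0 in the eKO and eKO with rLif libraries, and 0 in each of the 3 blastocyst libraries. *Mcidas* and *Gmnc*, which act upstream of it, had 0 counts in all 6 libraries, as did the members *Tekt3* and *Spag11a*. A count of 0 allows up to 3 counts, which is 0.104 to 0.119 CPM in the luminal libraries and 0.154 to 0.157 CPM in the blastocyst libraries. These regulators of multiciliated cells were thus not detectable in most libraries at this depth.

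Levels within the set spanned several orders of magnitude. In TPM, which divides by gene length so that genes can be compared, 26 of 48 members had a mean of at least 1 in the luminal layer and 15 had at least 10. In blastocysts these numbers were 22 and 8. The highest level in both tissues belonged to *Spag7*, a gene matched only by its name, at 221, 305 and 220 TPM in the luminal control, eKO and eKO with rLif libraries and 219, 231 and 255 TPM in the blastocyst libraries. *Ift20*, an IFT-B subunit that also works at the Golgi, was next among genes of ciliary transport, at 127, 137 and 124 TPM and 92.9, 94.7 and 83.9 TPM. *Ift43* led the IFT-A genes at 87.8, 69.4 and 74.6 TPM in the luminal layer and 26.7, 27.3 and 22.5 TPM in blastocysts. All 13 IFT genes passed the minimum of 10 counts in both tissues. The axonemal dynein chains lay at the other end, and the highest of them, *Dnaic2*, had 0.121, 0.301 and 0.345 TPM in the luminal layer and 0.740, 0.122 and 0.0401 TPM in blastocysts.

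**Figure D1:**
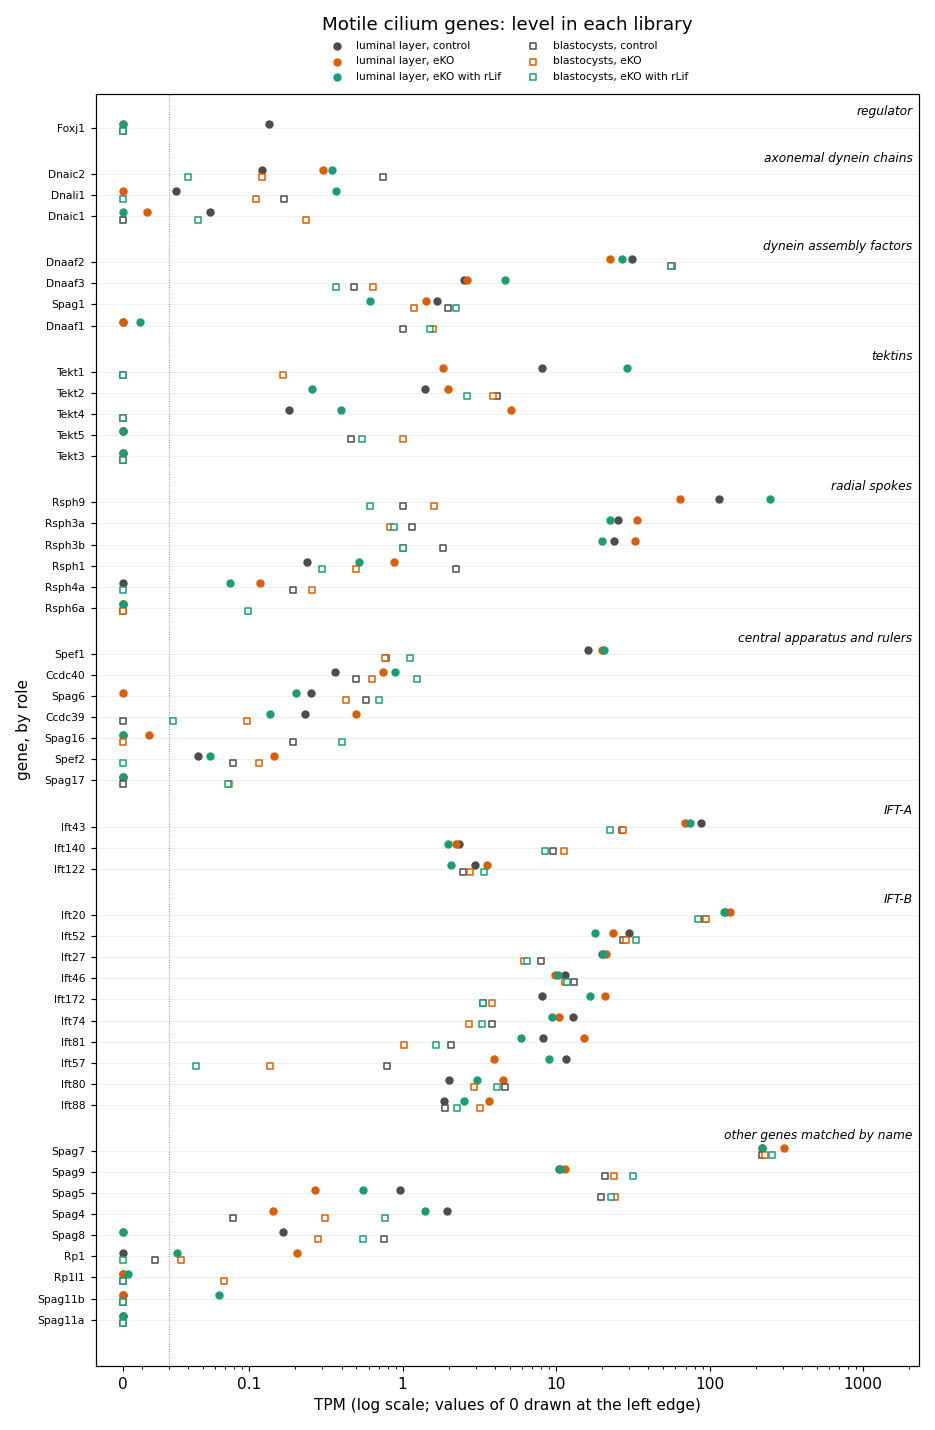
TPM of each of the 48 members in the 6 libraries, on a log axis and grouped by role; filled circles are luminal libraries, open squares are blastocyst libraries, colours give the group, and values of 0 stand at the left edge. The IFT genes other than *Ift57* sit between 1.02 and 137 TPM in all 6 libraries, while *Foxj1* and the dynein chains lie under 1 TPM in all 6.

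In the luminal layer 36 members passed the minimum of 10 counts over its 3 libraries. Between the libraries labelled eKO and control, 8 of the 36 were called, 4 higher and 4 lower (22.2%), where 17.2% of the 15694 genes tested were called, 8.08% higher and 9.15% lower. Between eKO with rLif and control, 4 members were called, all 4 higher (11.1%), against 9.16% of all genes, 4.12% higher and 5.04% lower. Between eKO with rLif and eKO, 10 members were called, 6 higher and 4 lower (27.8%), against 15.6% of all genes, 7.88% higher and 7.77% lower. The median log2 ratio of the 36 members was 0.36, 0.27 and -0.06 in the 3 comparisons, beside 0, 0.0022 and -0.0027 over all genes. The shares thus lay near the background in the first and second comparison, and members moved in both directions. With total counts as library sizes, which shift every log2 ratio of eKO with rLif against control by -0.18, the members called in that comparison were 2 higher and 1 lower (*Tekt2*), and over all genes 439 higher and 1031 lower in place of 647 and 791. The 3 comparisons share libraries, so that a low or high value in 1 library enters 2 of them.

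**Figure D2:**
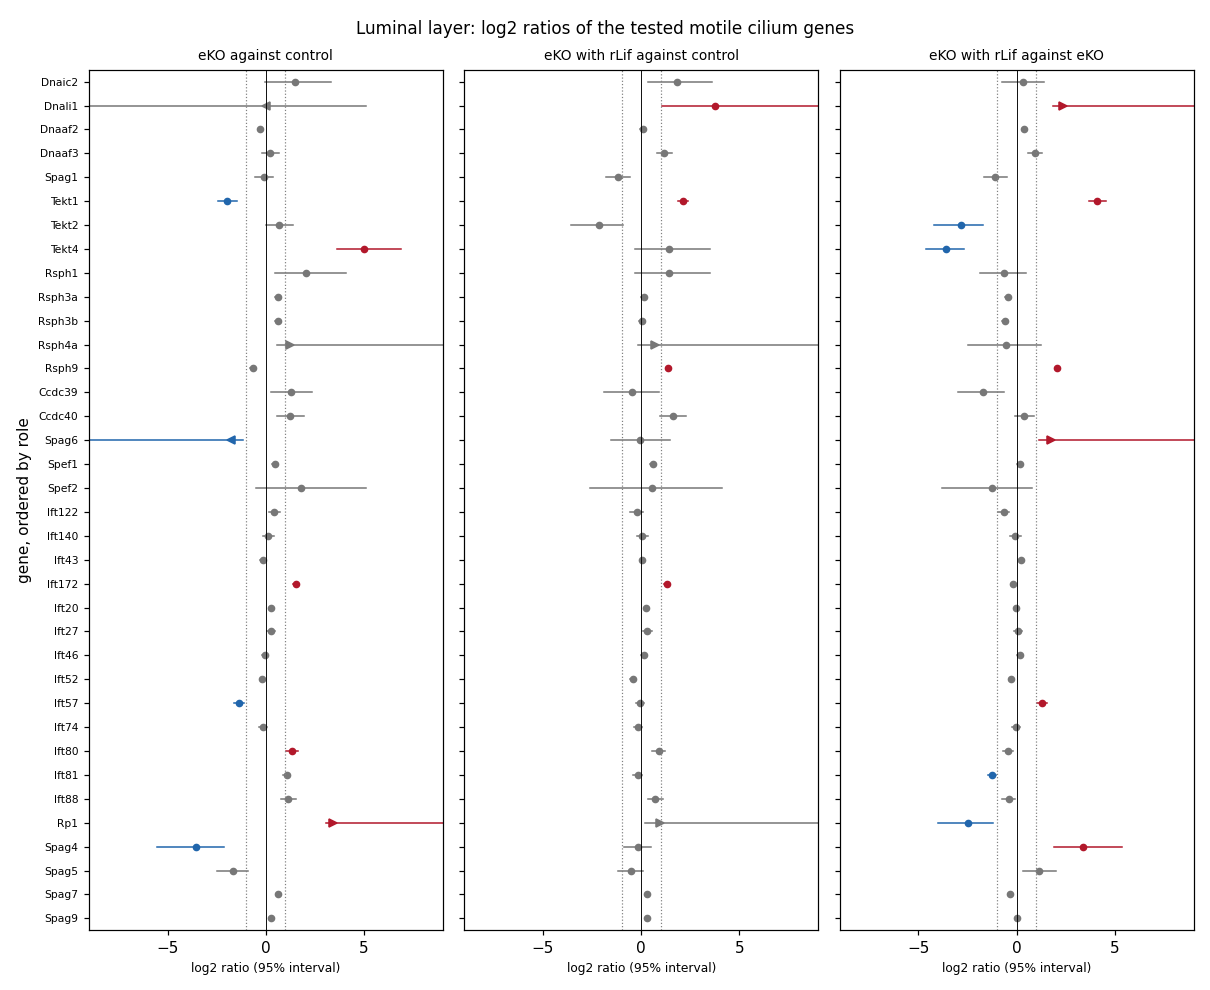
Log2 ratios of the 36 tested members in the luminal layer with their 95% counting intervals, for the 3 pairs of libraries; red and blue mark members called higher and lower, dotted lines mark 2-fold, triangles stand where a count of 0 was taken as 3, and axes stop at a log2 ratio of 9 in either direction. *Tekt1* and *Tekt4* lie far from 0 in opposite directions in the first panel and change sides in the third.

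The tektins, a small family of filament proteins, went opposite ways. *Tekt1* (chromosome 11, 72344720 to 72361880) had 163 counts in the luminal control library, 48 in the eKO library and 738 in the eKO with rLif library. It was thus lowest in the eKO library and highest after rLif, 3.86-fold lower in eKO than in control (log2 ratio -1.95, 95% interval -2.45 to -1.48) and far higher with rLif than in eKO (log2 ratio 4.08, 3.66 to 4.54). Its level with rLif also lay 4.39-fold above the control library (2.13, 1.89 to 2.39). *Tekt4* (chromosome 17, 25471590 to 25476594) was instead highest in the eKO library, with 4, 145 and 11 counts in the same libraries. It was 31.9-fold higher in eKO than in control (4.99, 3.61 to 6.89) and lower with rLif than in eKO (log2 ratio -3.58, -4.61 to -2.70). *Tekt2* had 30, 55 and 7 counts and was 7.12-fold lower with rLif than in eKO (-2.83, -4.21 to -1.69), while its ratio between eKO and control was not called. *Tekt3* and *Tekt5* had 0 counts in each luminal library.

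Of the 6 radial spoke genes, 5 were tested. Between eKO and control 0 were called, and 1 was called with rLif against control (20%, beside 9.16% of all genes) and against eKO (20%, beside 15.6%). *Rsph9*, a spoke head protein (chromosome 17, 46129277 to 46144198), was the most abundant axonemal member in the luminal layer, with 1566 counts in the control library, 1119 in eKO and 4220 in eKO with rLif, or 115, 64.2 and 247 TPM. The rLif library stood above both others, by 2.61-fold against control (1.39, 1.30 to 1.47) and by 4.16-fold against eKO (2.06, 1.96 to 2.15). *Rsph3a* and *Rsph3b*, which encode a spoke stalk protein, had 711, 1228 and 805 and 551, 973 and 584 counts, with no call. These 2 genes are near-identical copies on chromosome 17, and how reads were divided between them was not stated, so their separate values are uncertain. *Rsph1* had 4, 19 and 11 counts and *Rsph4a* 0, 8 and 5, with no call.

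The dynein chains were thinly covered, and of the assembly factors *Dnaaf2* was not. *Dnaic2*, an intermediate chain of the outer arm, had 5, 16 and 18 counts and was not called. *Dnali1*, a light intermediate chain of the inner arm, had 1, 0 and 14 counts. It was called higher with rLif against control (log2 ratio 3.76, 1.05 to 9.16) and against eKO. With the eKO count of 0 taken as 3, it was 5.15-fold higher with rLif than in eKO. Its exons overlap those of *Gnl2* on the opposite strand and whether counting used strand was not stated, so reads of the 2 genes cannot be told apart. Among the 4 assembly factors *Dnaaf2* led, at 1184, 1099 and 1284 counts, and *Dnaaf3* had 79, 106 and 185. Neither was called, nor was *Spag1* at 78, 84 and 36 counts.

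The heavy chains, which carry the motor activity and stand in the tables under older symbols, were also low in the luminal layer. The highest by counts over its 3 libraries, *Dnah2* (*Dnahc2*), had 46, 54 and 108. The summed TPM of the heavy chains was 0.705, 0.993 and 0.806 in the luminal libraries. In the blastocyst libraries it was higher, at 4.26, 4.42 and 4.07. Of the 11, 7 were tested in the luminal layer. *Dnah1* (*Dnahc1*) had 5, 43 and 18 counts and was 7.56-fold higher in eKO than in control (2.92, 1.59 to 4.61). *Dnah5* (*Dnahc5*) had 32, 103 and 20 counts and was 4.67-fold lower with rLif than in eKO (-2.22, -2.99 to -1.52). *Dnah17* (*Dnahc17*) had 27, 15 and 1 counts and was called lower with rLif against both, with log2 ratios of -4.80 (-10.15 to -2.20) and -3.77 (-9.16 to -1.06). Its exons overlap those of *Pgs1* on the opposite strand.

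Among genes of the central apparatus and of the rulers that set the spacing of dynein arms, *Spef1*, a microtubule-binding protein of the central pair, led with 531, 831 and 839 counts (16.3, 19.8 and 20.4 TPM). It was not called. *Spag6*, a central apparatus protein, had 9, 0 and 9 counts. The eKO library was thus lowest, by 3.41-fold against control and 3.31-fold against eKO with rLif when its count of 0 is taken as 3. The row named *Spag6* lies on chromosome 16 (16753016 to 16829363), where GENCODE M21 places *Spag6l*. The ruler genes *Ccdc39*, with 12, 33 and 9 counts, and *Ccdc40*, with 26, 69 and 81, were not called, and *Ccdc39* overlaps *Ttc14* on the opposite strand. *Spag17* had 0 counts in each luminal library and *Spag16* had 0, 2 and 0.

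Intraflagellar transport genes were detected in every library. Of the 13, 10 were not called between eKO and control and 3 were, 2 higher and 1 lower (23.1%, beside 17.2% of all genes). There was 1 call between eKO with rLif and control (7.69%, beside 9.16%) and 2 between eKO with rLif and eKO (15.4%, beside 15.6%), shares near those of all genes. The median log2 ratios were 0.27, 0.06 and -0.06. *Ift172*, a large IFT-B subunit (chromosome 5, 31253279 to 31291114), had 636, 2074 and 1624 counts. It was 2.87-fold higher in eKO than in control (1.52, 1.39 to 1.65) and 2.48-fold higher with rLif than in control (1.31, 1.17 to 1.44). *Ift80* had 119, 339 and 228 counts and was 2.50-fold higher in eKO (1.32, 1.02 to 1.64), close to the limit of the rule. *Ift81*, which binds tubulin cargo, had 348, 829 and 317 counts. Its ratio between eKO and control reached beyond 2-fold with an interval that did not (1.07, 0.88 to 1.25), and with rLif it was 2.37-fold lower than in eKO (-1.25, -1.44 to -1.06). *Ift57* (chromosome 16, 49699294 to 49765126) went the other way, with 422, 186 and 416 counts, 2.58-fold lower in eKO than in control (-1.37, -1.62 to -1.12) and 2.47-fold higher with rLif than in eKO (1.30, 1.05 to 1.56). None of the 3 IFT-A genes was called.

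Of the 9 members matched by name and placed in none of these roles, 5 were tested in the luminal layer, and 1 was called higher and 1 lower in eKO than in control (40%, beside 17.2% of all genes). *Spag4*, a SUN-domain protein of the spermatid nuclear envelope, had 42, 4 and 38 counts, 11.9-fold lower in eKO than in control (-3.58, -5.52 to -2.12) and 10.5-fold higher with rLif than in eKO (3.39, 1.92 to 5.34). *Rp1*, a microtubule protein of the photoreceptor axoneme, had 0, 37 and 6 counts. With the control count of 0 taken as 3, its eKO level was 10.8-fold that of control. It was 5.59-fold lower with rLif than in eKO (-2.48, -4.02 to -1.23). *Spag5*, which encodes the spindle protein astrin, had 53, 19 and 38 counts with no call. *Spag5* lay beside 22 mitotic genes whose summed CPM was 268, 140 and 183 in the same libraries. Of the 22, 0 were called higher and 4 lower in eKO than in control. These were 18.2%, beside 9.15% of all genes called lower and 17.2% called in either direction. The median log2 ratio of the 22 was -0.90, and 20 lay below 0. Whether the share of dividing cells bears on *Spag5* was not tested.

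**Figure D3:**
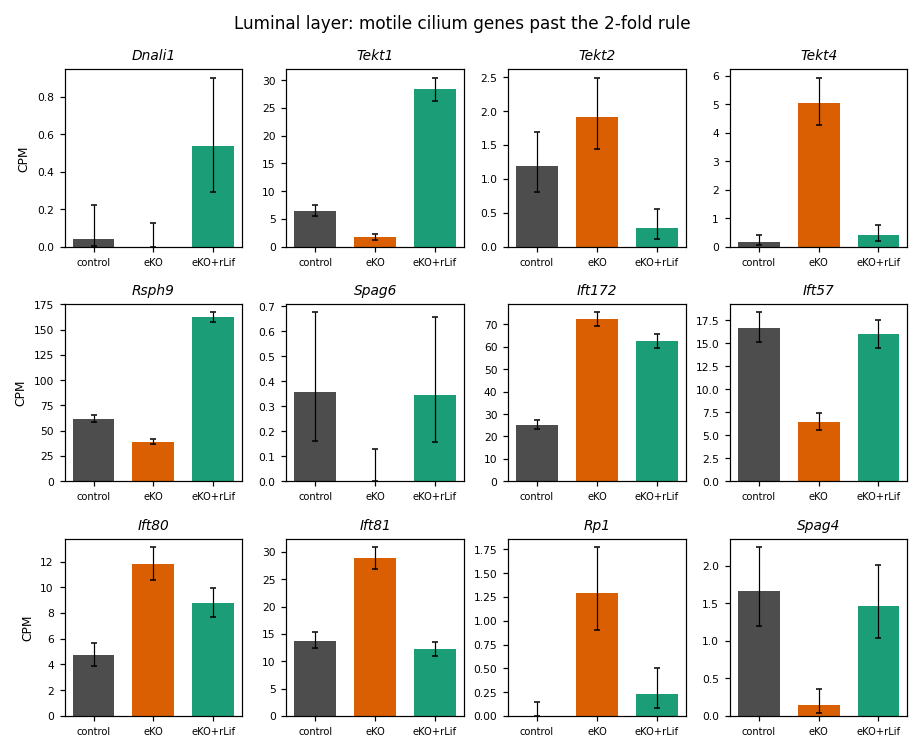
CPM (counts scaled to a common library size) of the 12 members called in any luminal comparison, in the 3 luminal libraries; bars are single libraries and error bars are exact 95% Poisson intervals, which cover counting error only. *Tekt1*, *Rsph9* and *Dnali1* are highest in the rLif library, *Tekt4*, *Ift172*, *Ift80*, *Ift81*, *Rp1* and *Tekt2* are highest in eKO, and *Ift57*, *Spag4* and *Spag6* are lowest in eKO.

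Across the 36 tested luminal members, the eKO library had the highest CPM of the 3 for 17 members (47.2%), the lowest for 10 (27.8%) and the middle value for 9. Over all luminal genes the shares were 37.4% highest and 37.1% lowest. Other cell types moved with the same libraries. Glandular epithelium markers had a summed CPM of 18.7, 19.5 and 38.3, with 7 of 7, 6 of 7 and 7 of 7 detected. Of the 7, 5 had their highest CPM in the rLif library and 2 in eKO, and the gland regulator *Foxa2* had 3, 0 and 10 counts. With rLif 3 were called higher and 0 lower than in eKO (42.9%, beside 7.88% of all genes higher). Smooth muscle markers had a summed CPM of 79.8, 55.7 and 35.3, with all 8 detected in each library and 5 of 8 called lower with rLif than in control (62.5%, beside 5.04% of all genes). Uterine stroma markers had a summed CPM of 844, 1321 and 887, with all 10 detected in each library and 2 called higher in eKO than in control (20%, beside 8.08% of all genes). Luminal epithelium markers had 11536, 19765 and 11694, with 4 of 12 called higher and 2 lower in eKO than in control (50% called, beside 17.2%). Endothelium markers had a summed CPM of 56.9, 76.9 and 97.9, and immune cell markers had 844, 719 and 686, with all 8 and all 9 detected in each library. The 3 oviduct epithelium markers in the tables went both ways between eKO and control. *Ovgp1*, at 1931, 12760 and 5405 counts, and *Wt1*, at 221, 858 and 468, were called higher in eKO, and *Pax8*, at 6616, 3387 and 8166, was called lower. The part of these cell types in the ciliary values was not tested.

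Promoter sequence was looked at for the members, called or not, since the X-box, the site of RFX factors, is known from ciliary genes. RefSeq windows from 250 bases before to 50 bases after the start (GRCm38.p6) were found for 36 of 48 members, and among those called in the luminal layer not for *Ift80*, *Ift81* and *Rp1*. The letters GTTGCC, the core block of an X-box, occurred on either strand in the windows of 15 of these 36 members (41.7%), and in those of 14.1% of 27025 genes. They were *Tekt1*, *Tekt2*, *Tekt4*, *Rsph3b*, *Dnaic2*, *Dnaaf2*, *Spag6*, *Spag8*, *Spag16*, *Spef2* and the IFT genes *Ift27*, *Ift57*, *Ift88*, *Ift140* and *Ift172*. A gene with several windows was counted when any of them held the letters. *Tekt1* and *Tekt2* each also had a window without them. The longer form GTTGCCATG occurred in 0 of the 36 and in 0.877% of genes, and the full spaced X-box palindrome in 0 and 0.529%. The STAT letters TTCNNNGAA, of interest because Lif acts through Stat3, occurred in 3 of the 36 (*Dnaaf3*, *Ift27* and *Ift43*; 8.33%) and in 9.55% of genes. The forkhead letters TGTTTAC occurred in *Tekt3* alone and in 4.05% of genes. A match of letters is a description of the window and not a bound site.

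The stretch from 150 bases before to 30 bases after the start is shown for 5 called members, 2 tektins, 2 IFT-B genes and *Rsph9*, chosen after their values were seen, 5′ to 3′ on the gene's strand, with GTTGCC and its complement GGCAAC in capitals. *Tekt1* and *Tekt4*, which moved in opposite directions, both hold the letters, and *Rsph9*, which moved with *Tekt1*, holds none.
*Tekt1*, chr11:72361853-72362032, minus strand: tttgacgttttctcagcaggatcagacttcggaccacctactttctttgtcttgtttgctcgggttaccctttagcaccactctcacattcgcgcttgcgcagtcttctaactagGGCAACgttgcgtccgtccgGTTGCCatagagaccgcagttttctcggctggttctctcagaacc
*Tekt4*, chr17:25471440-25471619, plus strand: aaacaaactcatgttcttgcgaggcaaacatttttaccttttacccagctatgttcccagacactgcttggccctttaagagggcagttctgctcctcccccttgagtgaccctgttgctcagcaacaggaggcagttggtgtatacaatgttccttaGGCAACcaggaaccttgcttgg
*Ift57*, chr16:49699144-49699323, plus strand: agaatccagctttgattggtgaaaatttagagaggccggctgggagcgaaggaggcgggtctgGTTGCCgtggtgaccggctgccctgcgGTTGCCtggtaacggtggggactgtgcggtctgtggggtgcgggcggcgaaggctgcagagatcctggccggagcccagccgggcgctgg
*Ift172*, chr5:31291085-31291264, minus strand: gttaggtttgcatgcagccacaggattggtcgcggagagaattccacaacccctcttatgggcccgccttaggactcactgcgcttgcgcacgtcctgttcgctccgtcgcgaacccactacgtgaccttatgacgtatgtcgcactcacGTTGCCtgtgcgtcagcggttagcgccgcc
*Rsph9*, chr17:46144171-46144350, minus strand: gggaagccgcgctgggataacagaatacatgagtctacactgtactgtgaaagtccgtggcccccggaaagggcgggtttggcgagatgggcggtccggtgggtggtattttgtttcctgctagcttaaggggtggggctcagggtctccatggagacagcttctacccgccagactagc
*Tekt1* has the letters on both strands just before the start shown, while its other RefSeq window, not shown, has none. *Ift57* has them in the same direction further upstream, *Ift172* has them at the start itself and *Tekt4* just after it. Members called higher and members called lower in eKO were both among those with the letters. Whether the letters bear on the direction was not tested.

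In blastocysts 35 members passed the minimum of 10 counts. None was called between the libraries from eKO and control dams, where 3.15% of the 14873 genes tested were called, 1.29% higher and 1.86% lower, and the point estimate alone passed 2-fold for 8 members, with counts of 0 taken as 3. Between eKO with rLif and control 3 were called, all lower (8.57%), against 4.94% of all genes, 0.948% higher and 3.99% lower. Between eKO with rLif and eKO 1 was called, higher (2.86%), against 3.75% of all genes, 0.914% higher and 2.83% lower. The median log2 ratios of the members were 0.01, -0.14 and 0.02.

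The 3 members called lower with rLif rested on few counts. *Dnaic2* had 18, 3 and 1 counts in the control, eKO and eKO with rLif blastocyst libraries, a log2 ratio of -4.20 with rLif against control (-9.58 to -1.53). *Ift57* had 17, 3 and 1 counts (-4.12, -9.50 to -1.44) and *Rsph1* had 22, 5 and 3 (-2.90, -5.29 to -1.17). All 3 were highest in the control library, and their ratios between eKO and control, -2.62, -2.54 and -2.17, had intervals that reached inside 2-fold. Of 10 uterine stroma markers, 9 also had their highest CPM in the control library, among them *Col1a2* at 53, 11 and 10 counts, *Dcn* at 164, 84 and 51 and *Hoxa11* at 24, 10 and 1. Luminal epithelium markers had no common order: 5 of 12 were highest in control, 5 in eKO and 1 with rLif, *Krt19* had 1401, 241 and 108 counts and *Calb1* 49, 201 and 18, and their summed CPM was 8241, 8495 and 7913. Immune cell markers were highest in eKO in 7 of 9, with a summed CPM of 63.7, 129 and 23.2. Of 9 uterine stroma markers tested, 4 were called lower with rLif than in control (44.4%, beside 3.99% of all genes), with a median log2 ratio of -1.28. The summed CPM of the stroma markers, which is mostly *Pdgfra*, a gene that primitive endoderm also expresses, was 164, 164 and 156, with all 10, 9 and all 10 detected. The part of uterine cells in these 3 values was not tested. *Spag16*, a central apparatus protein, had 8, 0 and 17 counts and was called higher with rLif against eKO. With the eKO count of 0 taken as 3, it was 5.70-fold higher.

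*Ift57* was the 1 member called in both tissues. In the luminal layer it was lowest in the library labelled eKO and near the control level with rLif, and in blastocysts it was lowest with rLif. *Tekt4*, so variable in the luminal layer, had 0 counts in each blastocyst library, and *Tekt1* had 0, 2 and 0. *Tekt2* led the tektins of blastocysts at 52, 50 and 34 counts, with no call. *Tekt5*, at 0 in the luminal layer, had 5, 11 and 6 counts there.

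The luminal layer and blastocysts were then set side by side. A member was called higher in a tissue when its lowest CPM in that tissue's 3 libraries was at least 2 times its highest CPM in the other's, with counts under 3 in the other tissue taken as 3. Of 41 members with at least 10 counts over the 6 libraries, 13 were higher in the luminal layer (31.7%) and 3 in blastocysts (7.32%), beside 22% and 20.9% of 17081 genes. The luminal members were 3 radial spoke genes, 6 IFT genes, *Tekt1*, *Spef1*, *Ccdc39* and *Dnaaf3*. *Rsph9* had the widest separation, with 8, 13 and 5 counts in the blastocyst libraries and a lowest luminal CPM 63.5 times the highest blastocyst CPM. The same ratio was 31.3 for *Rsph3a*, 20.5 for *Spef1*, 18.4 for *Rsph3b* and 8.06 for *Ift57*, and 11.8 for *Tekt1*, whose 0, 2 and 0 blastocyst counts were each taken as 3. The IFT genes *Ift20*, *Ift46*, *Ift52*, *Ift80*, *Ift88* and *Ift122* were not called for either tissue.

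Blastocysts were higher for *Spag5*, *Dnaaf1* and *Ift140*, where the lowest blastocyst CPM was 14.4, 9.56 and 2.38 times the highest luminal CPM, with the luminal counts of *Dnaaf1* each taken as 3. *Spag5* had 639, 794 and 755 counts there, and the 22 mitotic genes had a summed CPM of 3580, 3607 and 4361, against 140 to 268 in the luminal layer. *Dnaaf1*, a dynein assembly factor, had 24, 38 and 37 counts in blastocysts and 0, 0 and 1 in the luminal layer, and its exons overlap those of *Taf1c* on the opposite strand. *Dnaaf2* was the assembly factor with the highest level in both tissues, at 31.1, 22.5 and 26.8 TPM in the luminal layer and 56.8, 55.8 and 55.9 TPM in blastocysts, and it overlaps *9330151L19Rik* on the opposite strand.

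**Figure D4:**
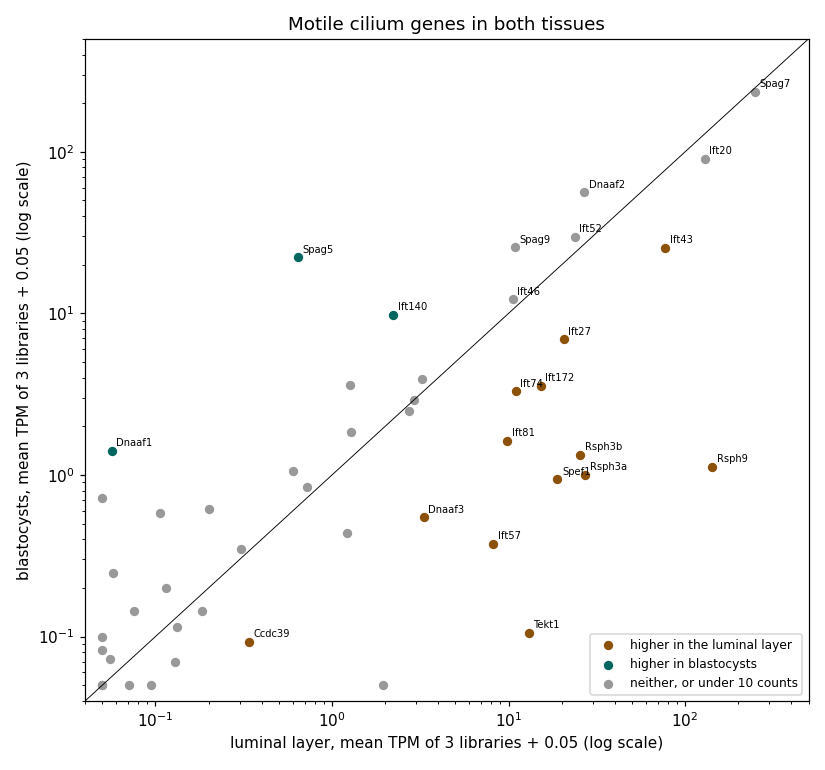
Mean TPM of each member in the 3 luminal libraries against its mean TPM in the 3 blastocyst libraries, both on log axes after adding 0.05; the line marks equal levels, and colours mark members called higher in a tissue by the CPM of single libraries. *Rsph9*, *Tekt1* and *Tekt4* lie furthest towards the luminal axis and *Spag5* and *Dnaaf1* furthest towards the blastocyst axis.

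Ciliary genes outside the symbol rule were taken from lists. Of 63 other axoneme genes, 51 were tested in the luminal layer: 8 were called higher and 5 lower in eKO than in control (25.5%, beside 17.2% of all genes). With rLif 1 was higher and 1 lower than in control (3.92%, beside 9.16%), and 0 were higher and 7 lower than in eKO. The 7 were 13.7%, beside 7.77% of all genes called lower and 15.6% called in either direction. Their median log2 ratios were 0.38, 0.0045 and -0.32. *Cfap53* (listed as *Ccdc11*), a protein of the axonemal microtubules, had 28, 465 and 34 counts, 14.6-fold higher in eKO than in control (3.87, 3.32 to 4.47). *Hydin*, of the central apparatus, had 26, 308 and 45 (3.38, 2.80 to 4.02), and *Meig1* 146, 1499 and 430 (3.17, 2.93 to 3.43). In these genes, as in *Tekt4*, the eKO library lay far above both others. *Cfap70* (listed as *Ttc18*) had 4, 34 and 0 counts and was also highest in eKO. *Cfap221* (listed as *Gm101*) had 13, 1 and 5 counts and was lower in eKO (-3.89, -9.30 to -1.15), and the assembly factor *Zmynd10* had 22, 0 and 3. *Dynll1*, a light chain shared by many motors, had the highest level of the list in the luminal layer, with a mean of 633 TPM, and *Tubb4b*, a tubulin, had the highest in blastocysts, with 937 TPM. *Tubb4b* overlaps *Fam166a* on the opposite strand.

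Regulators of multiciliated cells also had calls in both directions. Of 14 tested in the luminal layer, 2 were higher and 2 lower in eKO than in control (28.6%, beside 17.2% of all genes). *Ccno*, which acts in centriole amplification, had 36, 0 and 45 counts, so that eKO was lowest. With its count of 0 taken as 3, the eKO library lay 13.7-fold below control and 16.6-fold below eKO with rLif. *Deup1* (listed as *Ccdc67*), which builds the structures that amplify centrioles, had 18, 0 and 14 counts. With the count of 0 taken as 3, eKO lay 6.83-fold below control. *Ccdc78* had 2, 0 and 21 counts, and it overlaps *Fam173a* on the opposite strand. These 3 genes had 0 counts in eKO, the library in which *Tekt1* and *Spag6* were also lowest. The transcription factors *Myb*, at 66, 304 and 74 counts (2.02, 1.63 to 2.42), and *Rfx3*, at 44, 183 and 90 (1.87, 1.39 to 2.38), were instead higher in eKO. *E2f5* was the list's most abundant gene in the luminal layer (mean 68.9 TPM) and *Gmnn* in blastocysts (205 TPM), and *E2f5* overlaps *1810022K09Rik* on the opposite strand. The list of multiciliated cell markers had a summed CPM of 88.9, 460 and 145 in the luminal layer, of which *Tppp3*, at 1918, 11304 and 3061 counts, was the main part. Of its 18 rows, 4, 9 and 6 were at 0.

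Ciliary transport and primary cilium genes outside the rule were also split in direction. Of 56 tested in the luminal layer, 3 were higher and 3 lower in eKO than in control, 10.7% against the 17.2% of all genes, and their median log2 ratio was -0.03. *Kif3a*, a motor subunit of IFT trains, had 3924, 1573 and 6671 counts, 2.84-fold lower in eKO than in control (-1.50, -1.59 to -1.42) and 4.68-fold higher with rLif than in eKO (2.23, 2.15 to 2.31). *Bbs12*, a chaperone-like protein needed to assemble the BBSome, had 232, 55 and 214 counts (-2.26, -2.71 to -1.83). *Gpr161*, a receptor of the primary cilium, had 34, 6 and 4 counts and was lower than control in both eKO libraries. *Bbs10* had 168, 185 and 43 counts and was called lower with rLif against both other libraries. *Arl3* had the highest mean level of the list in the luminal layer (65.4 TPM) and *Tmem231* in blastocysts (186 TPM).

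**Figure D5:**
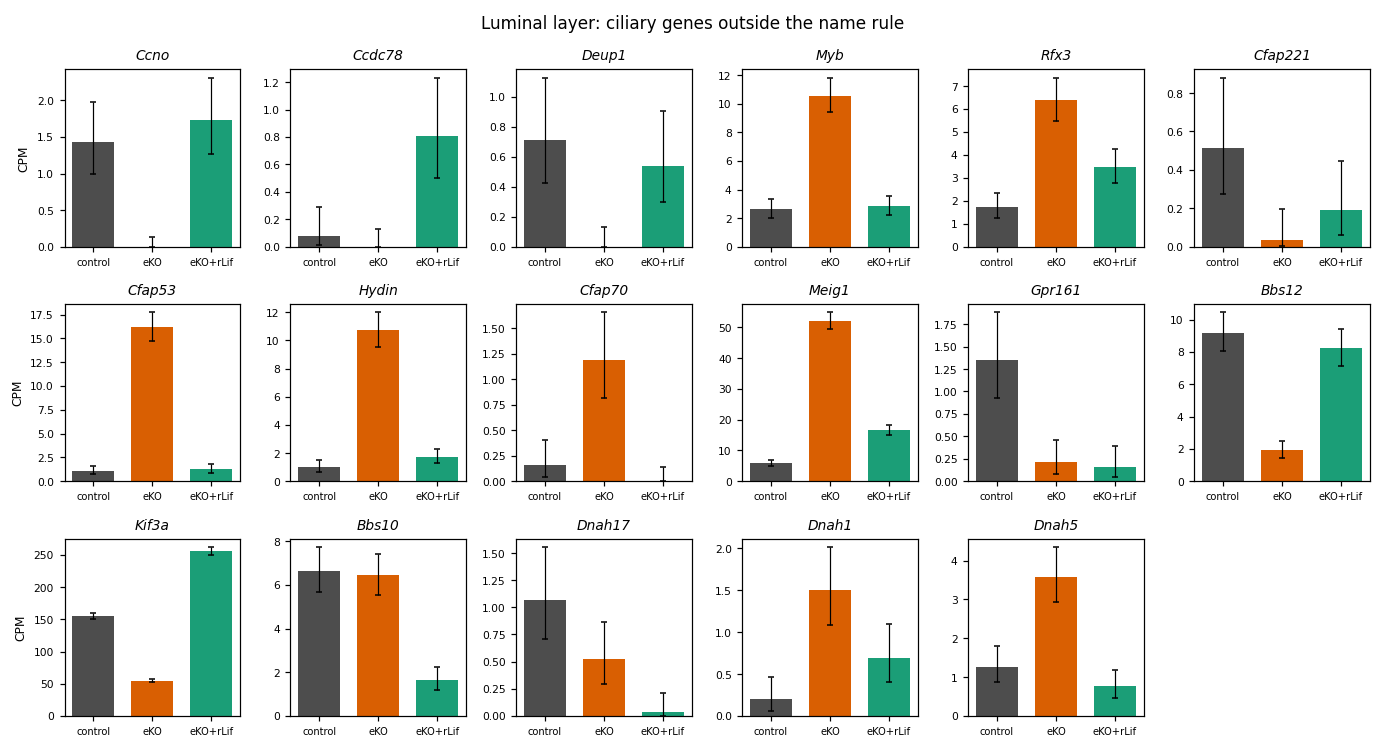
CPM of 17 ciliary genes outside the symbol rule in the 3 luminal libraries, at most 5 from each list and chosen for the widest called ratio; bars are single libraries and error bars are exact 95% Poisson intervals. *Ccno*, *Deup1* and *Ccdc78* are at 0 in eKO, and *Myb*, *Cfap53*, *Hydin* and *Meig1* are highest there.

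The members too rare to test complete the account. In the luminal layer 12 had under 10 counts over the 3 libraries: *Foxj1*, *Dnaic1*, *Dnaaf1*, *Tekt3*, *Tekt5*, *Rsph6a*, *Spag16*, *Spag17*, *Rp1l1*, *Spag8*, *Spag11a* and *Spag11b*, of which 5 had 0 in all 3. In blastocysts there were 13: *Foxj1*, *Dnaic1*, *Dnali1*, *Tekt1*, *Tekt3*, *Tekt4*, *Rsph6a*, *Ccdc39*, *Spef2*, *Rp1*, *Rp1l1*, *Spag11a* and *Spag11b*, of which 5 had 0 in all 3. The 7 members below the minimum in both tissues were *Foxj1*, *Dnaic1*, *Tekt3*, *Rsph6a*, *Rp1l1*, *Spag11a* and *Spag11b*. *Spag11a* and *Spag11b*, which encode defensin-like proteins of the epididymis, are near-identical copies, and *Dnaic1* overlaps *Enho* and *Spag17* overlaps *Wdr3* on the opposite strand.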

How the data were processed

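Gene-level reads were measured in 6 libraries, 1 per group, with groups taken from the sample labels. The authors made SMART-seq v4 libraries, aligned reads to GRCm38/mm10 with HISAT2 and counted them with featureCounts (Subread 2.0.0). The study's methods name RPKM, but each deposited column held whole numbers with its own total and was used as read counts. Strand and multi-mapping settings and the annotation release are not given in the sources used here. TMM scaling (edgeR 4.0.16 in R 4.3.3) was applied within each tissue, and over all 6 libraries for the comparison of tissues. Genes with at least 10 counts over the 3 libraries of a tissue were kept. Ratios of 2 counts have exact 95% Clopper-Pearson intervals (SciPy 1.17.1). PCR reads without molecular identifiers are not independent molecules, so intervals and floors cover counting error only. Against a count of 0 the fold was computed from a floor of 3 counts in that library. TPM used the deposited exon lengths. A gene was called when its interval lay wholly beyond a log2 ratio of 1. The procedure was run on simulated counts that held counting error only. That run therefore says nothing about variation between animals, pools or PCR.

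Members were sorted into 9 roles. Named with their counts were *Foxj1* and *Mcidas*, every member called in a comparison within a tissue, and the member of each role with the highest mean TPM in each tissue. From the other ciliary lists, the genes called in a luminal comparison with the largest log2 ratios, at most 5 a list, and the gene with the highest mean TPM per tissue were named. Other genes were named for context after their values were seen. A gene that this rule would name is not reported here. The members, the 4 pathway lists and the 11 marker lists were chosen with earlier results of these data known. Older symbols were matched through RefSeq synonyms, and sequences are from RefSeq. Alternatives were another size factor (DESeq2 1.42.0), total counts, other minimums, the point ratio, and the limits of the study (log2 fold change beyond 1, FDR below 0.05) in edgeR's exact test at an assumed dispersion of 0.1.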

Additional observations from a re-analysis of the deposited data

How the results depend on the processing

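No paired analysis was possible because each group was 1 library, and for the same reason no replicate could be left out. Of 44 recomputed counts of called members, 32 stayed within 1.5 times the reported count and 12 did not. Calling members by the point ratio alone, with a count of 0 taken as 3, gave 17 in the luminal layer for eKO against control and 11 for eKO with rLif against control, and 8, 7 and 8 in the 3 comparisons of blastocysts. The study's limits with an assumed dispersion of 0.1 gave 3, 0 and 6 in the luminal layer, and 0 and 0 in blastocysts for eKO with rLif against control and against eKO. A minimum of 50 counts left 0 in those same 2 comparisons of blastocysts, since the members called there had fewer counts. Of 146 recomputed ratios of called members, 125 stayed past the limit, 21 did not and 0 changed sign. Of the 21, 17 came from the assumed dispersion and 4 from total counts as library sizes (*Ift80*, *Ift172*, *Dnali1* and *Ift57*). At the assumed dispersion 9 stayed. The point ratio and the minimum of 1 count kept 26 of 26 each, which their rules all but fix in advance. At the minimum of 50 counts only 16 ratios were recomputed, and members below it are left out of the 146. Members with few counts are less able to show a 2-fold difference at this depth, so the absence of a call is no sign of equal levels.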

Other observations

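Other markers of multiciliated cells in the luminal libraries, in the order control, eKO and eKO with rLif, also had no common direction. *Tmem212* had 10, 0 and 37 counts and *Pifo* had 22, 12 and 35, lowest in the library labelled eKO. *Fam183b* had 3, 21 and 7 counts, *Odf3b* had 27, 40 and 24, and *Sntn* had 0, 7 and 0, highest in that library. In blastocysts the kinase *Ak7*, an axoneme gene outside the symbol rule, had 902, 1060 and 849 counts against 12, 5 and 4 in the luminal layer, and *Cfap57* (listed as *Wdr65*) had 92, 127 and 102 against 0, 4 and 6. *Tmem231*, of the ciliary transition zone, had 3815, 4278 and 5764 counts in blastocysts against 133, 126 and 102. These genes were named after their values were seen.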
